A study of Mus musculus with 4 samples.

Results

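Slc6a15, Slc22a7, Tcl1b5, Gm6662 and 9630001P10Rik were among the transcripts with the largest gain in signal in salivary glands (SGs) of mice labelled Myd88-/-. They are 5 of the 34844 genes named on the array and have 6 of its 55681 probes, 2 of them for Tcl1b5. They were chosen by name after earlier results of these same arrays had shown their gain, so their log2 differences between the genotypes describe the choice and carry no test. The chromosomal position of the genes and the sequences of their probes were not used in the choice, while the lists of related genes compared with them below were drawn up with those earlier results known.

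The 5 genes have little in common by known function. Slc6a15 encodes a sodium-dependent carrier of branched-chain amino acids and proline that is best known from neurons. Slc22a7 encodes OAT2, an organic anion transporter of liver and kidney. Tcl1b5 belongs to the Tcl1 family of small proteins that bind the kinase Akt, and the Tcl1b genes of the mouse are known from the oocyte and the early embryo. Gm6662 is listed in the RefSeq table of GRCm38.p6 as an older name of Scgb1b7. The Scgb1b genes encode the alpha subunits of androgen-binding protein, a secretoglobin of mouse saliva, and the Scgb2b genes encode its partner subunits. 9630001P10Rik is a long noncoding RNA in the same table, and no role is given for it here.

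MyD88 is the adaptor through which most Toll-like receptors and the IL-1 receptor family signal. Total RNA of SMGs and SLGs from female C57/BL6 mice, 10 weeks old, was hybridized to 1-colour Agilent whole mouse genome arrays, with 2 arrays for Myd88-null (Myd88-/-) and 2 for wild type (Myd88+/+) mice. The mutant line had been backcrossed to C57BL/6 mice, both genotypes came from heterozygous parents, and lymph nodes, fat and connective tissue were dissected away. The study's text speaks of whole SMGs without the SLGs and gives more animals for each genotype than there are arrays here, and these differences from the labels could not be settled. The labels do not say whether an array holds 1 animal or a pool, so p-values measure the spread between these samples, which may be technical. A single slide and a single scan hold all 4 arrays.

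The arrays differed in depth, and the difference crossed the genotypes. Signal well above background was found for 52.2% of 55681 probes on Myd88-/- array 1 and for 68.4% on array 2, whereas Myd88+/+ array 1 had 74.2% and array 2 had 55.1%. The Myd88 probe itself was not lower on the Myd88-/- arrays, at 1.51 and 1.41 against 1.15 and 1.07 (log2 signal, adjusted p = 0.264 from limma). The deleted exons are not given, so the probe does not check the labels, and all directions below rest on them. Acinar and granular tubule markers were present, with 0 of 11 and 0 of 9 genes below background on every array. The acinar list shares Smgc, Muc19, Dcpp1 and Dcpp2 with a list of sublingual gland markers, so it does not tell SMGs from SLGs. Of the 5 sex markers on the array, the Y-linked Ddx3y, Eif2s3y and Kdm5d were well above background on no array. A further Y-linked marker was detected on some array but was not tested. Markers of several other tissues differed between the labels. Tested markers were lower on the Myd88-/- arrays for 8 of 8 B cell genes (median log2 difference -3.57), 13 of 13 T cell genes (-2.31), 13 of 13 skeletal muscle genes (-4.07) and 10 of 10 adipocyte genes (-0.80), and higher for 9 of 11 acinar genes (0.32). Over all 22312 genes tested, 13295 were higher and 9017 lower, with a median of 0.06. In a tissue extract, fewer cells of a type and less RNA per cell cannot be told apart. How much lymph node, muscle or fat remained after dissection was not measured, and its part in these differences was not tested. The summed skeletal muscle level, in the units used below, was 3.17 and 3.29 on the Myd88-/- arrays, against 28.8 and 158 on Myd88+/+. Further lists were less uniform. Lower were 5 of 7 parotid genes (median -0.57) and 5 of 6 glia and Schwann cell genes (-0.12). Macrophage genes had 6 higher and 6 lower (0.01). Higher were 4 of 6 sublingual (0.16) and 5 of 9 granular tubule genes (0.05). The summed parotid level was 4317 and 3005 on the Myd88-/- arrays, against 4403 and 4440. By flow cytometry of male mice, the study reported more B cells and IgA+ plasma cells in SMGs of Myd88-/- mice. The B cell genes here went the other way.

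Signal is given below as the log2 processed signal minus the 75th percentile of the array, so that a spot at 0 lies at that percentile. The position of each probe is that of the files (mm9), and each of the 6 probes is 1 spot. The probes of Gm6662, 9630001P10Rik and Tcl1b5 are shown because a single stretch of 60 bases stands for each value, and because the values of Tcl1b5 turn on which of its probes is read. The Tcl1b2 probe is the one on the array most like the second Tcl1b5 probe, and capitals in these last lines mark bases that are not identical when the 2 sequences are set 1 base apart.
Gm6662 (chr7:32498851-32498910, plus strand): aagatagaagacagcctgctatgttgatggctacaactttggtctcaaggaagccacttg
9630001P10Rik (chr5:46033111-46033170, plus strand): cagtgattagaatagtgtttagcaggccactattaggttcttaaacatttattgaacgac
Tcl1b5 first probe (chr12:106414705-106414764, plus strand): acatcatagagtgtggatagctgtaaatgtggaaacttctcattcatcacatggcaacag
Tcl1b5 second probe (chr12:106417237-106417296, plus strand): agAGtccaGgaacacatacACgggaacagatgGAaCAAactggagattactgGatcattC
Tcl1b2 (chr12:106391315-106391374, plus strand): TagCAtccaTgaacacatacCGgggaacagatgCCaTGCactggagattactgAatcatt

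The second Tcl1b5 probe and this Tcl1b2 probe had 48 of 60 bases in common. For the other 5 probes, the best ungapped match among the 55680 other probes of the array reached 31 to 34 bases. The best match of the Gm6662 probe, with 34 bases, was to Gm12776, which is Scgb1b30 in RefSeq. It was at an offset of -20 bases, so fewer of the 60 bases were compared than for the other best matches, at offsets of -6 to 1. Gm12776 was bright on every array, with log2 signals of 10.17 and 10.15 on the Myd88-/- arrays and 9.78 and 9.83 on the Myd88+/+ arrays. Whether it adds to the signal of the Gm6662 probe was not tested. Probes sample only 60 bases of each transcript, so this comparison does not cover the rest of a gene family.

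Slc6a15 was read by 1 probe on chromosome 10, at chr10:102881388-102881447. Its log2 signal was -2.40 on the first Myd88-/- array and -2.56 on the second, and -6.00 and -6.12 on the first and second Myd88+/+ arrays. The transcript was well above background on both Myd88-/- arrays and on neither Myd88+/+ array. The log2 difference was 3.57, and against the detection limit the transcript was at least 4.11-fold higher on the Myd88-/- arrays. This bound, used throughout, sets the mean log2 signal of the detected arrays against, on each other array, the lowest signal of any probe well above background, or that of the probe itself where it was higher. Before correction, the spot had a mean brightness of 74.4 and 73.4 on the Myd88-/- arrays, over local backgrounds of 25 and 26. On the Myd88+/+ arrays it had 33.5 and 29.5, over 28 and 27. The arrays of each genotype lay close together, and the bound of Slc6a15 was 4.34-fold from Myd88-/- array 1 alone and 3.88-fold from array 2 alone.

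Slc22a7 was close to the limit of detection. Its probe lies on chromosome 17, at chr17:46569272-46569331 on the minus strand. Its log2 signal was -3.42 and -3.73 on the Myd88-/- arrays, both well above background, and -6.35 and -6.61 on the Myd88+/+ arrays, neither of which was. The log2 difference was 2.91, but the transcript can be called only at least 1.93-fold higher. Taken from Myd88-/- array 1 alone the bound of Slc22a7 was 2.1-fold, and from array 2 alone 1.7-fold. Its spot brightness was 55.0 and 54.9 over local backgrounds of 29 and 31 on the Myd88-/- arrays, and 35.7 and 25.7 over 27 and 25 on the Myd88+/+ arrays. Slc22a7 on Myd88+/+ array 2 was thus at its local background, and the signal there is a surrogate value that the scanner software sets for dim spots.

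Gm6662 (Scgb1b7) was the single gene of the 5 with signal well above background on all 4 arrays, so its fold change is measured on both sides. Its log2 signal was 0.62 and 0.74 on the Myd88-/- arrays and -3.15 and -2.85 on the Myd88+/+ arrays. The mean was 0.68 ± 0.08 (SD, n = 2) against -3.00 ± 0.22 (SD, n = 2), a log2 difference of 3.68 or 12.8-fold. Spot brightness was 404 and 414 against 66.5 and 62.8, over local backgrounds of 27 to 30. The genotypes were separated by 3.47 log2 units between the closest arrays, while the arrays within a genotype differed by 0.11 and 0.30.

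The first Tcl1b5 probe was high on both Myd88-/- arrays, but unevenly. Its log2 signal was -2.46 and 0.22 on these arrays, and -5.21 and -6.50 on the Myd88+/+ arrays, where it was not well above background. The log2 difference was 4.73, and the bound was at least 10.6-fold higher. Taken from Myd88-/- array 1 alone the bound of Tcl1b5 was 4.16-fold, and from array 2 alone 26.8-fold. Myd88-/- array 2 was 6.44-fold above Myd88-/- array 1, a gap larger than that of 99.65% of the 22312 genes tested. Without Myd88-/- array 2 the log2 difference of Tcl1b5 was 3.39.

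The second Tcl1b5 probe did not follow the first. Its log2 signal was -5.91 and -2.20 on the Myd88-/- arrays, and -1.66 and -6.24 on the Myd88+/+ arrays. It was well above background on Myd88-/- array 2 and Myd88+/+ array 1 and on no other, so it was not tested, and its log2 difference was -0.10. Among all probes, 6565 (11.8%) showed this pattern of detection, which joins the arrays with the most detected probes of each genotype. The files assign the second probe to a transcript of Tcl1b3 as well as to Tcl1b5, and the first probe to a transcript of Tcl1b1 as well as to Tcl1b5. The signal of either probe cannot therefore be given to Tcl1b5 alone.

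9630001P10Rik resembled the first Tcl1b5 probe. Its log2 signal was -3.11 and -0.46 on the Myd88-/- arrays, and -6.92 and -6.50 on the Myd88+/+ arrays, where it was not well above background and had surrogate values. The log2 difference was 4.92, and the bound was at least 6.66-fold higher. It was 2.67-fold from Myd88-/- array 1 alone and 16.6-fold from array 2 alone. Myd88-/- array 2 exceeded Myd88-/- array 1 by 6.24-fold, a larger gap than for 99.6% of genes tested. Without Myd88-/- array 2 the log2 difference of 9630001P10Rik was 3.60.

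**Figure D1:**
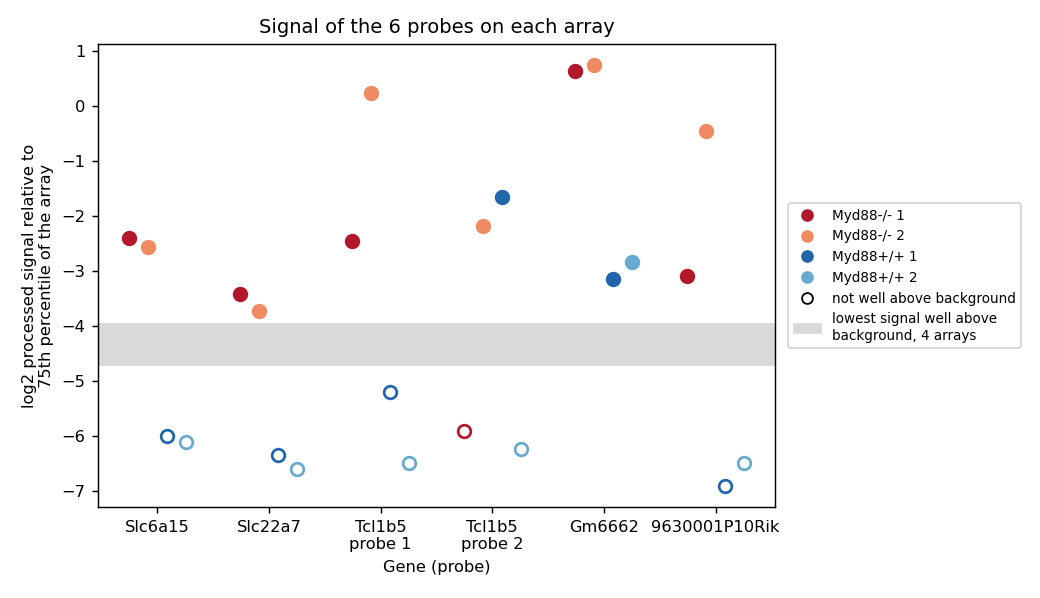
The log2 processed signal relative to the 75th percentile of the array is plotted for each of the 6 probes on the 4 arrays, with 1 point per array; open points were not well above background, and the grey band spans the lowest detected signal of the 4 arrays (-4.71 to -3.97). Both Myd88-/- points lie above the band and both Myd88+/+ points below it for Slc6a15, Slc22a7, Tcl1b5 probe 1 and 9630001P10Rik, whereas Tcl1b5 probe 2 is high on 1 array of each genotype.

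**Figure D2:**
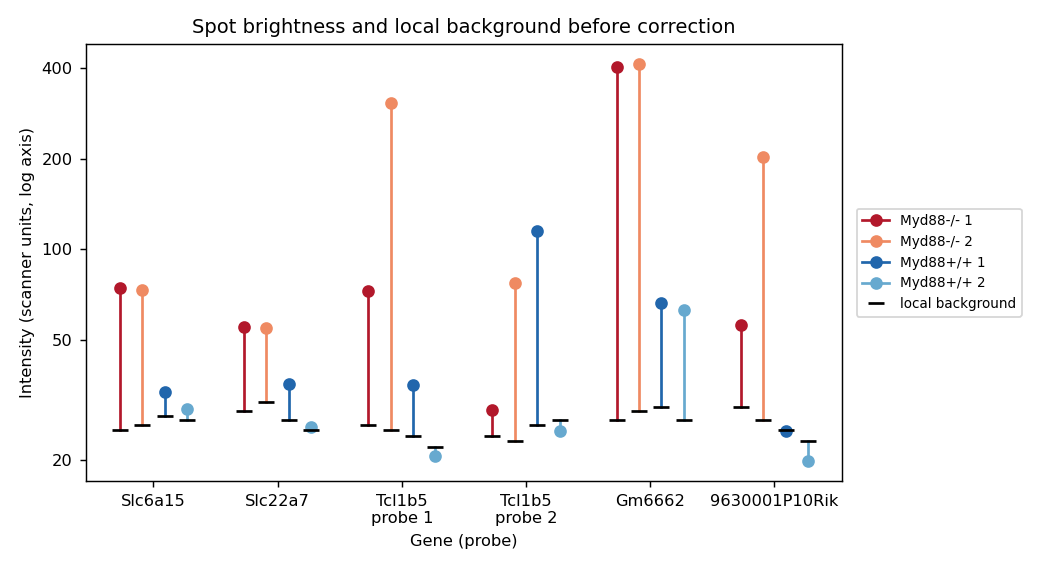
The mean spot brightness (points) and the median local background (bars) are plotted on a logarithmic axis in scanner units, before background correction and scaling, for each probe and array. The Myd88-/- spots of Slc22a7 reached 55.0 and 54.9 over backgrounds of 29 and 31, and those of Gm6662 reached 404 and 414.

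All 5 tested genes had both Myd88-/- arrays above both Myd88+/+ arrays. Over all 22312 genes tested this held for 33.2%, and since the genes were chosen for their gain, nothing is read from the count. By log2 difference they ranked 1 (9630001P10Rik), 2 (Tcl1b5), 5 (Gm6662), 7 (Slc6a15) and 14 (Slc22a7), but no rank is firm, because 1 side of the difference lies below the detection limit for every gene but Gm6662, and Gm6662 is ranked against such differences. Detection on both Myd88-/- arrays and on neither Myd88+/+ array was rare, at 57 of 55681 probes (0.102%), and 4 of the 6 probes described here belong to these 57, as the choice of the genes favoured. The opposite pattern was found for 621 probes (1.12%). Limma called 0 of the 22312 genes (0%) at an adjusted p under 0.05, and 3715 (16.7%) had an unadjusted p under 0.05. Of all genes tested, 2190 (9.82%) were higher and 1525 (6.83%) lower at an unadjusted p under 0.05, and counts of lists and neighbours below stand beside these shares. The test named in the study's methods called 1 after adjustment. 

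The size of the gain depended on how the background was treated. With normexp background correction, which adds an offset of 50 and so compresses dim signals, the log2 difference was 2.40 for Gm6662, 1.77 for Tcl1b5, 1.49 for 9630001P10Rik, 0.94 for Slc6a15 and 0.56 for Slc22a7. Quantile normalization gave 2.53 for Slc22a7, 3.03 for Slc6a15 and 3.75 for Gm6662. Scaling by the median or by the detected probes shifted each gene by -0.05, and keeping outlier spots changed none of the 5. The direction was the same in each setting run, but the genes were chosen for that direction, so nothing is read from this.

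The arrays were also compared in pairs of like depth, a choice made after the data were seen. Between the arrays with fewer detected probes, Myd88-/- array 1 and Myd88+/+ array 2, the log2 difference was 3.71 for Slc6a15, 3.19 for Slc22a7, 3.47 for Gm6662, 4.04 for Tcl1b5 and 3.40 for 9630001P10Rik. Between the arrays with more, it was 3.44, 2.62, 3.89, 5.43 and 6.45 in the same order. The sign of these differences follows from the choice of the genes. For 9630001P10Rik the pairs differed by more than 3 log2 units.

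**Figure D3:**
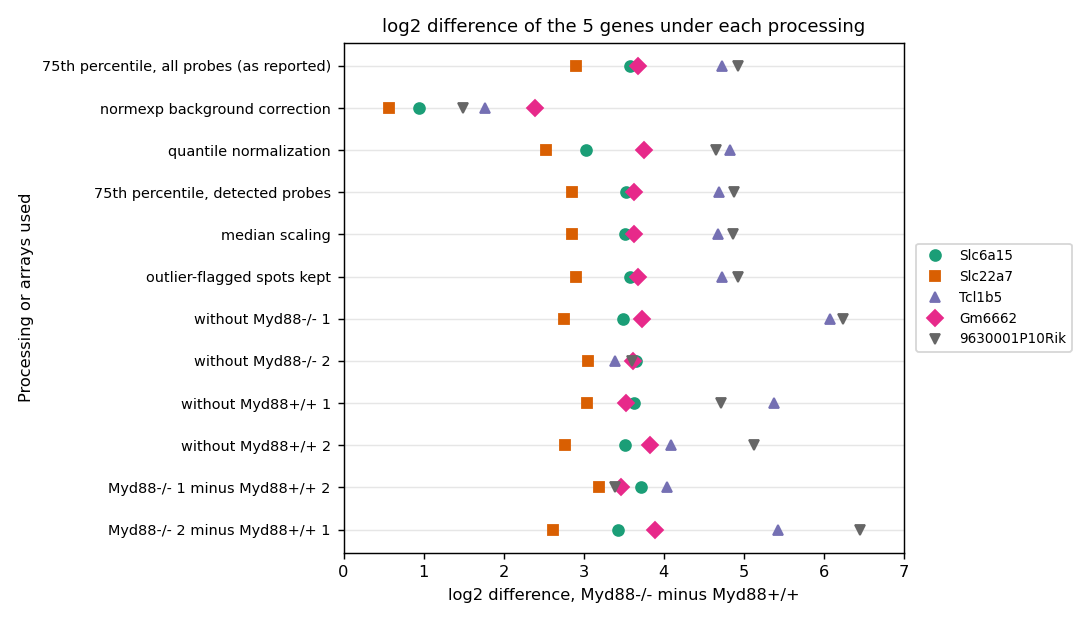
The log2 difference of each gene (Myd88-/- minus Myd88+/+) is plotted for the processing reported here, for 5 other treatments of background and scaling, with each array left out, and within 2 pairs of arrays of like depth. Slc22a7 falls from 2.91 to 0.56 under normexp, and Tcl1b5 and 9630001P10Rik spread most when a Myd88-/- array is left out.

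The Slc6 family carries neurotransmitters, amino acids, creatine and taurine. Of 19 other Slc6 genes on the array, 10 were tested, and 5 were well above background on no array. Of the 10, limma found 2 higher and 0 lower at an unadjusted p under 0.05, where 9.82% of all genes were higher and 6.83% lower, and 0 passed adjustment. The 2 became 0 with median scaling, with the replicate block or without Myd88+/+ array 2, and 1 without any other single array. The median log2 difference was 0.19, against 0.06 over all genes, and no other member differed by more than 0.52. Slc6a16, an orphan member of the family, had log2 signals of -2.07 and -1.77 against -2.09 and -2.79 (log2 difference 0.52, adjusted p = 0.449 from limma). Slc6a8, the creatine transporter, had 3.46 and 3.34 against 2.98 and 3.02 (0.40, adjusted p = 0.241). Slc6a12, a betaine and GABA transporter, was the single member with a lower mean (-0.05, adjusted p = 0.853). A gain of the size seen for Slc6a15 was not found in any other tested Slc6 gene, but Slc6a15 was chosen for its gain, which favours this contrast.

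The Slc22 family carries organic anions, organic cations and carnitine. Of 24 other Slc22 genes, 13 were tested and 8 were well above background on no array. Their median log2 difference was -0.05, with 6 higher and 7 lower. At an unadjusted p under 0.05, 1 was higher (7.69%, against 9.82% of all genes), and none was with median scaling or the replicate block. Slc22a18 differed by 0.36 (adjusted p = 0.248 from limma). The lowest were Slc22a6, the renal organic anion transporter OAT1, at -0.35 (adjusted p = 0.584) and Slc22a5, the carnitine transporter, at -0.17 (adjusted p = 0.686).

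Transporters of the same substrates in other families were read beside these. Among 18 tested carriers of neutral amino acids outside Slc6, limma found 5 higher (27.8%) and 0 lower at an unadjusted p under 0.05. Over all genes, 9.82% were higher and 6.83% lower. The median of the 18 was 0.20, with 0 passing adjustment. The 5 higher became 0 with median scaling, 2 with the test named in the study's methods, and 2, with 1 lower, without Myd88-/- array 2. Without Myd88-/- array 1 there were 6 higher and 2 lower, and without Myd88+/+ array 2 there were 3 higher. The largest increases were in Slc36a1, a lysosomal proton-coupled carrier, with log2 signals of 1.21 and 1.18 against 0.49 and 0.48 (log2 difference 0.71, adjusted p = 0.194 from limma), and Slc38a1, a sodium-coupled glutamine carrier, with 4.74 and 4.61 against 3.95 and 3.98 (0.71, adjusted p = 0.194). In both genes the arrays of a genotype lay close together. The largest decreases were in Slc36a2 at -0.82 (adjusted p = 0.332), where Myd88-/- array 1 lay below the 3 other arrays, and Slc7a6 at -0.47 (adjusted p = 0.371).

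Among 18 tested organic anion and drug transporters outside Slc22, 2 were higher and 2 lower at an unadjusted p under 0.05, with a median of 0.07. These are 11.1% each, where 9.82% of all genes were higher and 6.83% lower. The 2 higher became 0 with median scaling or without either Myd88-/- array, and 1 without Myd88+/+ array 1. Slco1b2, a hepatic uptake carrier of organic anions, had log2 signals of -0.94 and -1.01 against -2.15 and -1.47 (log2 difference 0.83, adjusted p = 0.278 from limma), and Slco1c1, a thyroid hormone carrier, differed by 0.47 (adjusted p = 0.325). Slco4c1 differed by -1.02 (adjusted p = 0.491), with neither Myd88-/- array well above background, and Abcb1b, a multidrug efflux pump, by -0.77 (adjusted p = 0.204).

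The Tcl1 family offers a direct comparison for Tcl1b5, because its Tcl1b genes lie side by side on chromosome 12. Tcl1 and Tcl1b1 were well above background on no array. The Tcl1b3 probe had log2 signals of -5.88 and -3.13 on the Myd88-/- arrays and -3.21 and -6.24 on the Myd88+/+ arrays, the same pattern of detection as the second Tcl1b5 probe. The Tcl1b2 probe printed above had -6.27 and -3.87 against -4.40 and -6.63, again detected on Myd88-/- array 2 and Myd88+/+ array 1 only. No probe of the family other than the first of Tcl1b5 was detected on both Myd88-/- arrays and on neither Myd88+/+ array. This pattern was found for 0.102% of all probes and Tcl1b5 was chosen for its gain, so nothing is read from the contrast.

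The tested genes of the family were close to level. The brighter Tcl1b2 probe had log2 signals of 0.65 and 0.41 against 0.25 and 0.15 (log2 difference 0.33, adjusted p = 0.340 from limma). Tcl1b4 differed by -0.30 (adjusted p = 0.724) and was detected on the Myd88+/+ arrays only, near the limit. Mtcp1, the family member on the X chromosome, differed by -0.20 (adjusted p = 0.508), and its 3 other probes by -0.28 to -0.01. The median of the 3 tested genes was -0.20.

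**Figure D4:**
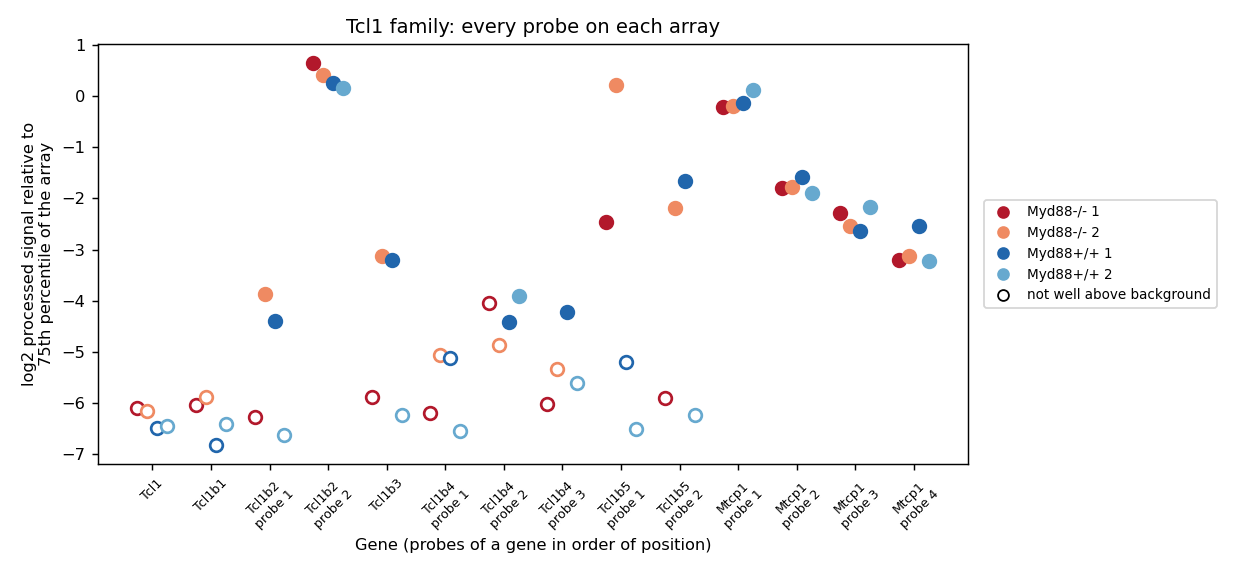
The log2 processed signal relative to the 75th percentile of the array is plotted for all 14 probes of the Tcl1 family on the 4 arrays, with open points where the spot was not well above background. Tcl1b5 probe 1 reaches -2.46 and 0.22 on the Myd88-/- arrays, while Tcl1b5 probe 2, Tcl1b3 and Tcl1b2 probe 1 are detected on 1 array of each genotype.

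Genes linked to the known biology of the Tcl1 family were read next. All 22 genes of the Akt pathway list were tested, with 4 higher (18.2%) and 2 lower (9.09%) at an unadjusted p under 0.05 and a median of 0.03. Over all genes, 9.82% were higher and 6.83% lower. The 4 higher became 0 with median scaling, with the replicate block or without either Myd88-/- array, and 1 without either Myd88+/+ array, and the 2 lower became 1 without either Myd88-/- array. The lowest were Pik3cd, a PI3-kinase subunit of leukocytes, with log2 signals of -1.57 and -1.32 against 0.51 and -0.38 (log2 difference -1.51, adjusted p = 0.222 from limma), and Inpp5d, a lipid phosphatase of blood cells, at -0.85 (adjusted p = 0.209). The B cell and T cell markers were lower on the same arrays, as given above, and their part in these values was not tested. The highest were Pik3r1 at 0.52 (adjusted p = 0.262) and Foxo3 at 0.44 (adjusted p = 0.244). Of 23 oocyte and early embryo genes on the array, 3 were tested, none of them higher, with a median of -0.27. The lowest were Gdf9, an oocyte growth factor, at -0.67 (adjusted p = 0.588) and H1foo, the oocyte linker histone, at -0.27 (adjusted p = 0.727). Of the 20 not tested, 8 were below background throughout and 7 were detected on Myd88-/- array 2 and Myd88+/+ array 1 only.

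Markers of the tissues in which Slc6a15 and Slc22a7 are best known were also examined. For comparison, 13295 of all 22312 genes tested were higher and 9017 lower, with a median of 0.06. Of 9 tested neuron markers, 7 were higher and 2 lower, 0 with an unadjusted p under 0.05 in limma, and the median was 0.20. Their summed level, in multiples of the 75th percentile, was 40.8 and 41.5 on the Myd88-/- arrays and 30.9 and 38.0 on the Myd88+/+ arrays. Of 8 tested liver markers, 7 were higher and 1 lower. At an unadjusted p under 0.05, 2 were higher, Cyp2e1 at 1.43 and Ttr at 1.32, where 9.82% of all genes were higher. The median of the 8 was 0.12, with summed levels of 29.8 and 22.6 against 19.7 and 15.7. Alb and Apoa1 were well above background on no array. Apoa2, Apoc3, Cyp2e1, Fga, Fgb, Serpina1a and Ttr were well above it on all 4, and Ahsg on the Myd88+/+ arrays only. Of 6 tested kidney markers, 5 were higher and 1 lower. At an unadjusted p under 0.05, 1 kidney marker was higher, where 9.82% of all genes were higher. The median of the 6 was 0.21, with summed levels of 3.07 and 2.83 against 2.76 and 2.33. Slc12a1 was well above background on no array. The part of the neuron, liver and kidney markers in the values of Slc6a15 and Slc22a7 was not tested.

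Neighbours were the tested genes with a probe within 1 Mb, and there were 140 of them for the 5 genes together. Of these, 19 were higher (13.6%) and 7 lower (5%) at an unadjusted p under 0.05 in limma, with a median of 0.05 and 0 passing adjustment. Over all genes, 9.82% were higher and 6.83% lower. These counts moved with the scaling, to 12 higher and 11 lower when scaled by the detected probes and 0 and 3 by the median. With the replicate block there were 9 higher and 4 lower. The count higher was 11 without Myd88-/- array 1, 8 without Myd88-/- array 2 and 9 without either Myd88+/+ array, and the count lower was 3 to 6. No neighbour was higher by more than 0.94.

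The surroundings of Slc6a15 and Slc22a7 were close to level. Slc6a15 has 4 tested neighbours, and the nearest on either side were Rassf9, 873 kb away, at -0.05 (adjusted p = 0.877 from limma) and the transcript NAP068632-1, 475 kb away, at -0.01 (adjusted p = 0.966). Nts, which encodes neurotensin, differed by -0.58 (adjusted p = 0.724), and its signals of -4.31 and -2.62 against -2.43 and -3.34 overlapped. The highest was Gm8120 at 0.09 (adjusted p = 0.712). Slc22a7 has 69 tested neighbours. Crip3, 0.6 kb away, had log2 signals of -0.26 and -0.04 against -0.31 and -0.03 (log2 difference 0.02, adjusted p = 0.961), and Gm5093, 7.2 kb away on the other side, differed by 0.04 (adjusted p = 0.958). The 69 had 5 higher (7.25%) and 3 lower (4.35%) at an unadjusted p under 0.05, below the 9.82% and 6.83% over all genes. They had 0 and 2 under median scaling and 2 and 1 under the replicate block. Without Myd88-/- array 1 they had 5 and 0, and without Myd88-/- array 2 they had 3 and 3. The lowest were Nfkbie, an inhibitor of NF-kB, at -1.18 (adjusted p = 0.233) and Ttbk1, a kinase of tau, at -1.06 (adjusted p = 0.606). The highest were an unnamed intergenic transcript at 0.63 (adjusted p = 0.341) and Gm88, which is Lrrc73 in RefSeq, at 0.61 (adjusted p = 0.513).

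Gm6662 lies among genes of its own family. Its nearest tested neighbour was Gm4684, which is Scgb2b7 in RefSeq, 8.7 kb away at chr7:32490111-32490170. Gm4684 had log2 signals of 2.67 and 2.64 on the Myd88-/- arrays and 1.85 and 1.94 on the Myd88+/+ arrays, and so differed by 0.76 (adjusted p = 0.194 from limma). Abpe (Scgb2b2), 409 kb away, had 10.74 and 10.79 against 10.28 and 10.33, a difference of 0.46 (adjusted p = 0.211). Gm5325 (Scgb1b3), 337 kb away, had 9.66 and 9.63 against 9.23 and 9.31, a difference of 0.37 (adjusted p = 0.244). The 3 genes had both Myd88-/- arrays above both Myd88+/+ arrays. This held for 16 of the 36 tested neighbours of Gm6662 and for 33.2% of all genes tested, so nothing is read from it. Each of the 3 differed by no more than 0.76 log2 units, against 3.68 for Gm6662, which was chosen for its gain.

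Of the 36 tested neighbours of Gm6662, 8 were higher (22.2%) and 1 was lower (2.78%) at an unadjusted p under 0.05 in limma, with a median of 0.12. Over all genes, 9.82% were higher and 6.83% lower. The largest increases were in the transcripts NAP113326-1, 211 kb away, with log2 signals of -0.90 and -0.89 against -1.84 and -1.83 (log2 difference 0.94, adjusted p = 0.194), and NAP029108-1, 183 kb away, at 0.88 (adjusted p = 0.262). Of the 8, 7 lie between 409 kb on one side of Gm6662 and 621 kb on the other. The lowest was Fxyd5, a regulator of the sodium pump, at -0.57 (adjusted p = 0.287), followed by an intergenic transcript at -0.48 (adjusted p = 0.531). With quantile normalization the 8 became 4, with the replicate block 5, and with median scaling 0. They became 5 without Myd88-/- array 1 and 4 without either Myd88-/- array 2 or Myd88+/+ array 1. Over the whole table, 14 tested genes carry an Scgb1b or Scgb2b name in RefSeq, a list drawn up after their values were seen. All 14 had separate arrays and were higher on the Myd88-/- arrays, by 0.33 to 3.68, where this held for 33.2% of all genes tested. Gm6662, which was chosen for its gain, is counted among the 14 and lies at the upper end. Abpz (Scgb2b24) was next at 2.30. The acinar markers were higher on the same arrays for 9 of 11 genes (median 0.32), and their part in these values was not tested. The genes of this cluster are close copies of each other, and their probes may share signal.

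Around Tcl1b5 and 9630001P10Rik the median neighbour was level. Of 22 neighbours of Tcl1b5, 4 were higher (18.2%) and 2 lower (9.09%) at an unadjusted p under 0.05, with a median of 0.01. Over all genes, 9.82% were higher and 6.83% lower. The 4 became 0 with median scaling, with scaling by the detected probes or without either Myd88-/- array, and 1 with the replicate block or without Myd88+/+ array 2. The nearest were Tcl1b2 and Tcl1b4, described above, and the lowest was Serpina3g, a serpin known from activated T cells and macrophages, with log2 signals of -1.85 and -1.95 against 1.02 and -0.33 (log2 difference -2.24, adjusted p = 0.214 from limma). D430019H16Rik differed by -0.82 (adjusted p = 0.468). The highest were Gm8966 at 0.72 (adjusted p = 0.297) and Serpina3h, a relative of Serpina3g, at 0.56 (adjusted p = 0.299). Of 9 neighbours of 9630001P10Rik, 2 were higher (22.2%) and 1 lower (11.1%) at an unadjusted p under 0.05. The noncoding transcript 1600023N17Rik, 26.9 kb away, had log2 signals of -1.66 and -1.97 against -2.53 and -2.34 (log2 difference 0.62, adjusted p = 0.240). Med28, a subunit of the Mediator complex 116 kb away on the other side, was level at 0.03 (adjusted p = 0.899). The other extremes were the unnamed probe A_55_P1966383 at 0.68 (adjusted p = 0.257), Gm3364 at -0.58 (adjusted p = 0.227) and Lcorl at -0.43 (adjusted p = 0.340).

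**Figure D5:**
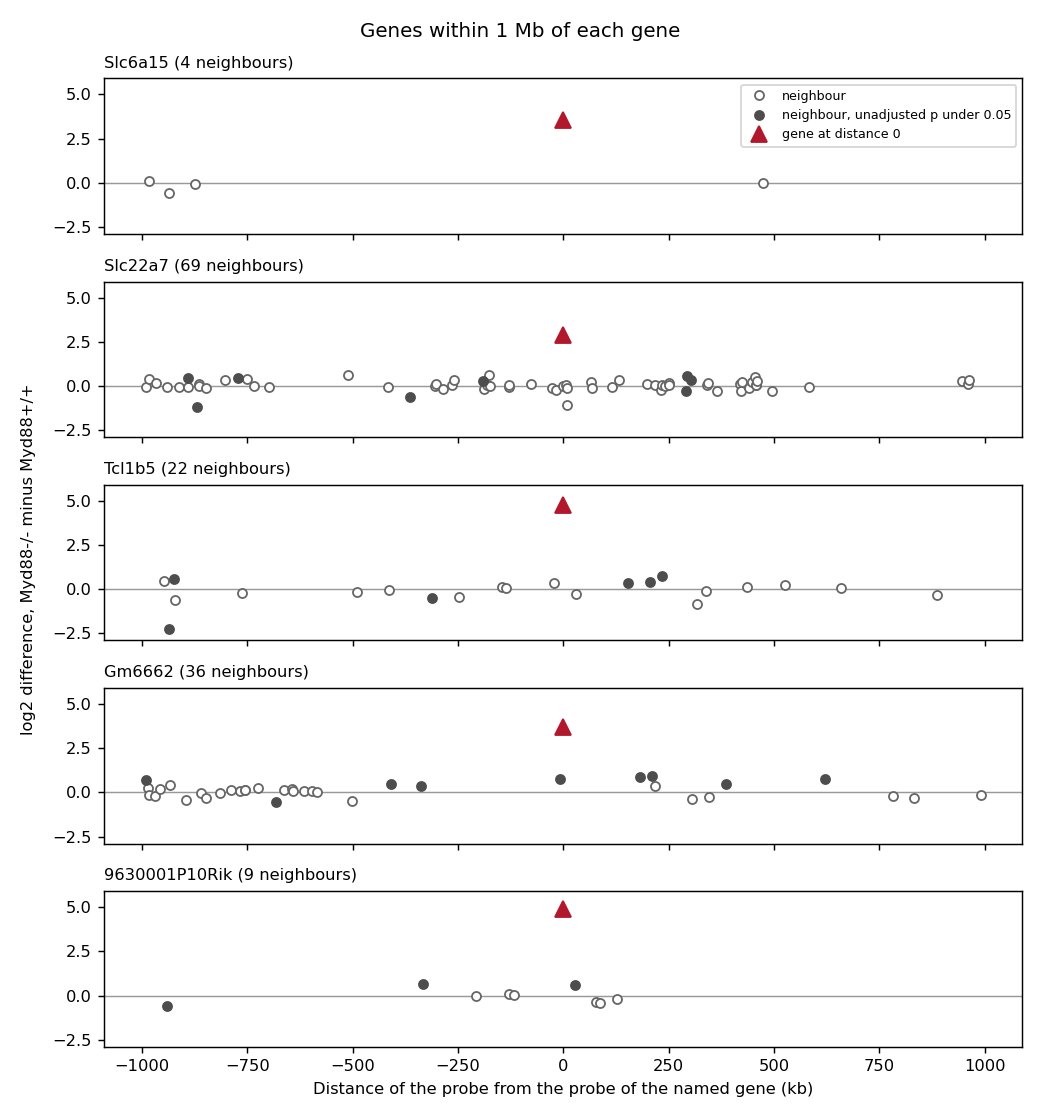
The log2 difference (Myd88-/- minus Myd88+/+) is plotted for each tested gene within 1 Mb of the 5 genes against the distance of its probe in kb; triangles mark the gene itself and filled points an unadjusted p under 0.05 in limma. Each triangle stands above all its neighbours, as the choice of the genes for their gain favoured. Around Gm6662 filled points above 0 lie on both sides, with values up to 0.94.

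The transcripts most like each gene were found by the distance between profiles of the 4 log2 signals, each centred on its own mean, among 22311 other genes tested. Each likeness rests on 4 arrays and is a description. The centred profiles are led by the difference between the genotypes for which the genes were chosen, and signals below the detection limit enter them. For Slc6a15 the closest were Gm6662 (distance 0.37), an unnamed intergenic transcript at chr7:3312711-3312770 (0.62) and Gm12888 (0.66). For Slc22a7 they were the same intergenic transcript (0.10), the probe A_55_P2022282 (0.25) and the transcript TC1673801 (0.44). Gm6662 was closest to Gm12888 (0.31), Slc6a15 (0.37) and Ptchd2 (0.62), which is Disp3 in RefSeq.

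Tcl1b5 and 9630001P10Rik were the closest to each other, at a distance of 1.22, since both were higher on Myd88-/- array 2. Next for Tcl1b5 came the probe A_55_P2155261 (1.79) and Ptchd2 (2.07), and for 9630001P10Rik Ptchd2 (1.80) and A_55_P2155261 (2.01). A_55_P2155261 lies at chr7:34158604-34158663 and A_55_P2022282 at chr7:33956918-33956977, both between the outermost Scgb genes tested, Abpe at chr7:32089876-32089935 and Gm12776 at chr7:34885721-34885780. A_55_P2022282 had log2 signals of 0.06 and -0.38 on the Myd88-/- arrays and -3.03 and -2.97 on the Myd88+/+ arrays, and A_55_P2155261 had -1.38 and -0.76 against -4.47 and -5.24. A_55_P2155261 was well above background on 1 of the 2 Myd88+/+ arrays. Both probes were picked for profiles like those of genes chosen for their gain, so their log2 differences of 2.85 and 3.79 carry no support.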

How the data were processed

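The authors deposited 1 scanner file for each of 4 arrays, made with Agilent Feature Extraction 10.7.3.1. The deposited processed intensity is corrected for background, with surrogate values for dim spots and no normalization between arrays, and the mean intensity and local background are uncorrected. Flags deposited beside them give detection above background, outliers and surrogates. A processed table was left out, since none of its 4 value columns names a sample.

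The log2 intensity of each non-control spot (59305 per array) was taken minus the 75th percentile of its array, after outlier spots (99 to 131 per array) had been left out. A probe was tested when well above background on both arrays of a genotype, and the brightest such probe stood for its gene. Genotypes were compared over the 22312 genes in limma 3.58.1 (lmFit, eBayes; R 4.3.3), with Benjamini-Hochberg adjustment. On simulated arrays of these 22312 genes, 200 of them changed, limma recovered 0 at a log2 change of 1 and 173 at 3. The simulated noise was independent, with variances drawn from limma's estimate, and held no depth difference and no surrogate values. Recovery on the real arrays, which have both, was not measured. RefSeq (GRCm38.p6) gave names for 15575 genes (69.8%), and all coordinates are mm9 from the files.

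The members, gene lists and neighbours' window were chosen with earlier results of these data known. Named are every probe of the members, Myd88, the 2 largest increases and 2 largest decreases of each list and neighbourhood, every Tcl1 gene, the nearest tested neighbours and the 3 most similar profiles; 1 gene of the Slc22 list is not reported here. Gm5325, Abpe, Abpz and Gm12776 of the Scgb genes were added after their values were seen. Alternatives were normexp (offset 50), quantile, median and detected-probe scaling, outliers kept, other filters, the mean of probes, trended moderation, the methods' t-test, a replicate block and each array left out.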

Additional observations from a re-analysis of the deposited data

How the results depend on the processing

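The number of arrays, 2 for each label, limits all values, and signal over background was poorest on the first Myd88-/- array and the second Myd88+/+ array. The 5 genes kept their direction in each setting run, but they were chosen for that direction, so nothing is read from this. Their log2 differences moved beyond the spread between arrays with normexp (0.94 for Slc6a15, 0.56 for Slc22a7, 1.77 for Tcl1b5, 2.40 for Gm6662, 1.49 for 9630001P10Rik), with quantile normalization (3.03 for Slc6a15, 2.53 for Slc22a7) and within the pairs of like depth (3.71 and 3.44 for Slc6a15, 3.19 and 2.62 for Slc22a7, 3.47 and 3.89 for Gm6662, 3.40 and 6.45 for 9630001P10Rik). The cause was not tested, except that the offset of normexp compresses dim signals by construction. With each array left out, they spanned 3.49 to 3.65 for Slc6a15, 2.75 to 3.06 for Slc22a7, 3.39 to 6.08 for Tcl1b5, 3.53 to 3.83 for Gm6662 and 3.60 to 6.24 for 9630001P10Rik.

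Of all genes tested, limma called 0 at an adjusted p under 0.05, but 79 with normexp, 402 with median scaling, 482 with trended and robust moderation and 1 with the methods' t-test. The last test had 2009 higher and 926 lower at an unadjusted p under 0.05, against 2190 and 1525 with limma, and median scaling had 240 and 755. Trended moderation called 2 neutral amino acid carriers and 5 chromosomal neighbours, and median scaling 1 neighbour. The median log2 difference of a list also moved. For the Slc22 family it was 0.0551 with normexp, 0.15 without the filter on dim probes and -0.0428 to 0.0940 with each array left out. For the Tcl1 family it was 0.16 with normexp, 0.28 without the filter, 0.0628 with detection required on all 4 arrays and -0.33 to 0.12 with each array left out. For the oocyte list it was 0.0403 with normexp, 0.37 without the filter, and -0.62 to 0.0646 with each array left out. For the neighbours it was 0.0003 with scaling by detected probes, -0.0049 with median scaling and 0.0344 to 0.0977 with each array left out. With each array left out it was 0.0480 to 0.38 for the Slc6 family and -0.0163 to 0.22 for the organic anion list. The cause was not tested.

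Same-numbered arrays of the 2 genotypes deviated in opposite directions (correlation -0.37 across 22312 genes), and their depth differed in opposite directions too. The correlation therefore cannot decide whether the replicate numbers paired the samples. With the replicate block limma called 0 genes, with 1238 higher and 1172 lower at an unadjusted p under 0.05. The block changed no log2 difference of the 5 genes and no other adjusted call. With the numbers crossed, a pairing added after seeing the data, 0 genes were called, with 2317 higher and 1840 lower before adjustment.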
